A study of Drosophila melanogaster with 4 samples.

Results

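The translation initiation factor genes of Drosophila melanogaster are described here as a group of 44 genes, those whose symbol begins with eIF and a digit, of 14373 genes in the tables. Initiation factors bring the small ribosomal subunit and the initiator tRNA to an mRNA, find the start codon and join the large subunit. The eIF4 factors bind the 5′ cap and unwind the leader, eIF3 is the many-subunit scaffold on the small subunit, eIF2 carries the initiator tRNA with GTP, and eIF2B recharges eIF2. Just after egg laying a fly embryo transcribes little and translates the mRNA that the mother stored in the egg, so regulation of initiation is a main way of setting which proteins are made. Later the maternal mRNA is degraded and the embryo's own genome takes over.

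RNA came from whole w118 embryos 4–5 h after egg laying (2 libraries), a stage after genome activation, and from whole w118 embryos 0–1 h after egg laying (2 libraries), before it. No mutant, transgene or treatment is named for either stage, and total RNA was sequenced as native molecules on a Nanopore device (direct RNA sequencing), a method with no copying to DNA and no amplification. Lengths of poly(A) tails, which change at this time, were not analysed here. Depth was 883138 and 429534 reads in the 4–5 h libraries, against 573843 and 557424 reads in the 0–1 h libraries. All 4 are bulk samples of whole embryos, in which fewer cells of a type and less RNA per cell cannot be told apart. Whether the 2 libraries of a stage stem from separate embryo collections is not stated in the labels. The p-values therefore reflect the variation among these 4 libraries alone, and this variation may be technical.

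The stage labels were compared with marker genes. Maternal markers (bcd, osk, dhd and pgc) had 101 and 53 reads in all in the 4–5 h libraries and 6433 and 6058 in the 0–1 h libraries, and the 6 zygotic markers (en, slp1, Kr, tin, SoxN and Abd-B) had 308 and 172 reads at 4–5 h, against 3 and 8 at 0–1 h. Follicle and yolk markers (6 genes) held 1 and 2 reads at 4–5 h and 0 and 0 at 0–1 h. Of 5 testis markers only bam, a germ line differentiation gene, had reads, with 2 and 3 at 4–5 h and 49 and 60 at 0–1 h, and Mst87F, can, aly and dj had none. The 5 hemocyte markers had 48 and 27 reads at 4–5 h, against 95 and 98 at 0–1 h, all from srp and crq, with Hml, He and NimC1 at 0. These went opposite ways: srp had 28 and 18 reads at 4–5 h, against 3 and 2 at 0–1 h (called higher), and crq had 20 and 9 at 4–5 h, against 92 and 96 at 0–1 h (called lower).

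Levels are given on 2 scales. CPM are reads of a gene per 1e+06 reads of its library, with library sizes scaled by the TMM method so that the bulk of genes stays level. TPM are the authors' length-scaled values, which have the same sum in every library. Ranks and ratios of different genes in TPM depend on the division by transcript length as well as on reads. Whether this division suits reads of native molecules was not tested. The scaling sets the direction of many changes: over 6042 tested genes the median log2 change at 4–5 h was -0.10 with TMM, -1.29 with library size only and -1.80 in log2(TPM + 1). A gene called higher here was therefore higher when set against most other genes, and no amount per embryo is implied. Ratios of 2 genes within a library do not depend on this scaling.

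Of the 44 genes 38 had reads and 35 passed the filter on low counts. With TMM 22 of these 35 were called higher at 4–5 h and 3 lower (edgeR quasi-likelihood test, Benjamini-Hochberg adjusted p under 0.05), and 10 were not called. Over all 6042 tested genes 28.6% were called higher and 31.5% lower, 60.1% in either direction. In CPM both 4–5 h libraries lay above both 0–1 h libraries for 26 of the 35 members and 37.7% of all tested genes. They lay below for 6 members and 42.1% of all tested genes. In TPM they lay above for 0 members and below for 27, and this share was not counted over all genes. Most genes were lower on that scale: limma on log2(TPM + 1) called 79.4% of all tested genes lower and 5.16% higher. The median log2 change of the 35 members was 0.84, and with library size only it was -0.35, with 8 called higher and 11 lower against 10.9% and 63.3% of all genes. Set against the median of all genes, the members' median stood 0.93 higher with TMM, 0.94 with library size only, 0.74 in log2(TPM + 1) and 0.33 in log2(TPM + 5). Above the median of all genes lay 28 of 35 members in the first 3 of these and 27 in log2(TPM + 5). Initiation factor genes took 1.24% and 1.13% of all reads in the 4–5 h libraries and 1.07% and 1.08% in the 0–1 h libraries.

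The direction of change was the same under all settings tried for 10 of the 35 genes. It was positive for eIF4A, eIF3g1, eIF3k and eIF3m, although in log2(TPM + 1) their changes were near 0, between 0.0011 and 0.062. In the other direction eIF4E1, eIF4EHP, eIF4G1, eIF4G2, eIF2Bdelta and eIF6 were negative under all 15 settings. The other 25 changed sign under at least 1 setting.

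**Figure D1:**
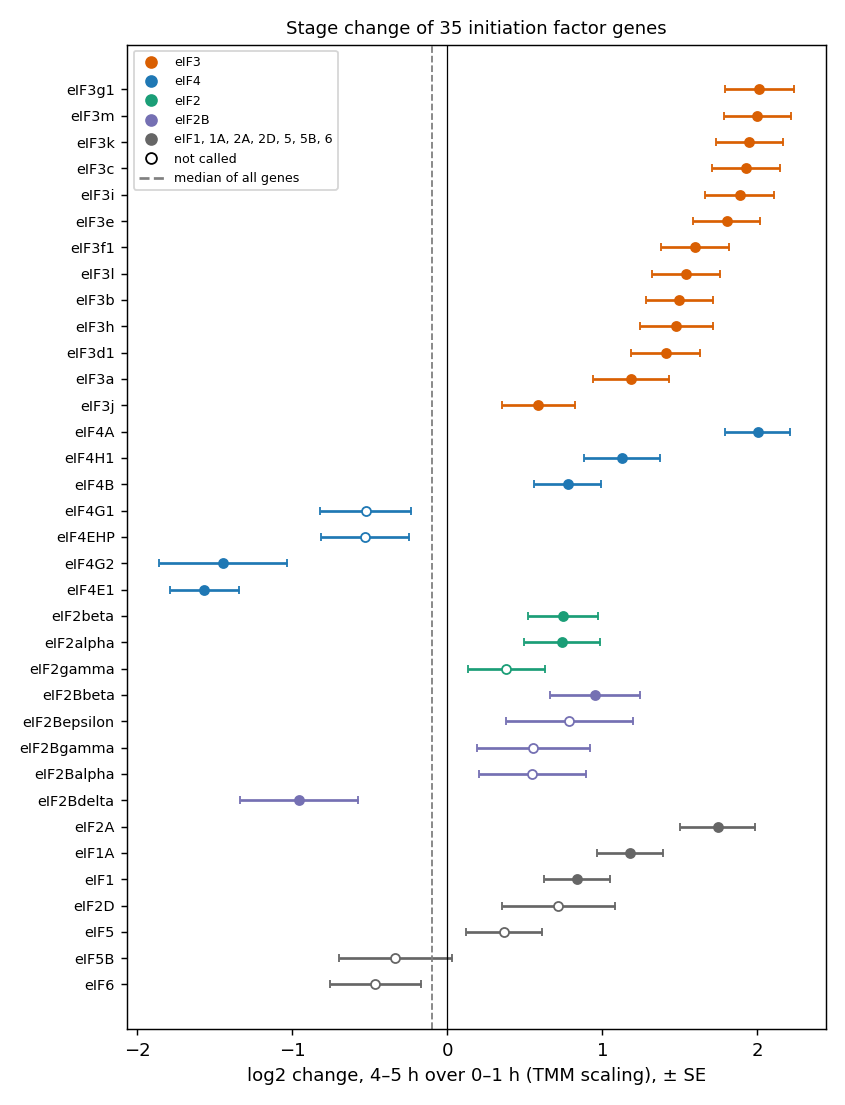
Log2 change at 4–5 h over 0–1 h (horizontal axis, TMM scaling) of the 35 tested initiation factor genes (vertical axis), grouped by complex; points are fitted values, bars are ± SE, open points did not pass the test and the dashed line is the median of all tested genes at -0.10. All 13 eIF3 genes lie between 0.59 and 2.01, while the eIF4 genes run between -1.57 and 2.00. In log2(TPM + 1) 10 of the 13 eIF3 genes and 6 of the 7 eIF4 genes are below 0, where the median of all genes is -1.80.

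The cap-binding group split. The mRNA of eIF4A, the helicase that unwinds the leader, was higher at 4–5 h, and that of eIF4E1, the main cap-binding protein, was lower, so the ratio of these partners of 1 complex differed between the stages. Reads of eIF4A (chromosome 2L, 5981764 to 5985909, plus strand) stood at 5118 and 3325 CPM in the 4–5 h libraries, against 971 and 1138 CPM in the 0–1 h libraries. Both 4–5 h libraries lay above both 0–1 h libraries. The log2 change was 2.00 (SE 0.21, edgeR adjusted p = 2.4e-13), 0.80 with library size only and 0.019 in log2(TPM + 1). In TPM eIF4A stood at 657 and 469 in the 4–5 h libraries and at 536 and 560.2 in the 0–1 h libraries, which overlap.

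Reads of eIF4E1 (chromosome 3L, 9399618 to 9402460, minus strand) stood at 195 and 213 CPM in the 4–5 h libraries, against 639 and 567 CPM in the 0–1 h libraries. These values do not overlap, and the log2 change was -1.57 (SE 0.22, edgeR adjusted p = 3.0e-09), 2.97-fold lower. Of the 3 members called lower, eIF4E1 was the one that kept its call under all 14 other settings, with values between -3.32 and -1.50. In TPM its level was 30.6 and 51.3 at 4–5 h and 474 and 346 at 0–1 h. Among the 44 members ranked by TPM it stood 20th and 18th in the 4–5 h libraries and 4th in both 0–1 h libraries. By contrast eIF4A ranked 1st in both 4–5 h libraries and 2nd in both 0–1 h libraries.

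Within a library, eIF4A had 26.3 and 15.6 reads per eIF4E1 read at 4–5 h, against 1.52 and 2.01 at 0–1 h. Per length the ratio of TPM was 21.5 and 9.13 at 4–5 h, against 1.13 and 1.62 at 0–1 h. The groups do not overlap, and an exact two-sided permutation test over samples gave p = 0.333, the smallest that 2 libraries against 2 allow. In the fit across all genes the changes of these genes differed by 3.57 on the log2 scale (SE 0.31, 95% interval 2.97 to 4.17). They had the highest and lowest changes of the 7 tested eIF4 genes, and the interval does not allow for that choice.

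The eIF4A helpers eIF4B and eIF4H1 were called higher with TMM, with negative values under library size only and in TPM. Reads of eIF4B, which stimulates the helicase, stood at 492 and 443 CPM at 4–5 h and at 259.7 and 287 CPM at 0–1 h (log2 change 0.78, SE 0.22, -0.41 with library size only). The related cofactor eIF4H1 had 237 and 353 CPM at 4–5 h and 153 and 113 CPM at 0–1 h (log2 change 1.13, SE 0.25, -0.050 with library size only). Leaving out 0–1 h replicate 1 ended the call for eIF4B.

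**Figure D2:**
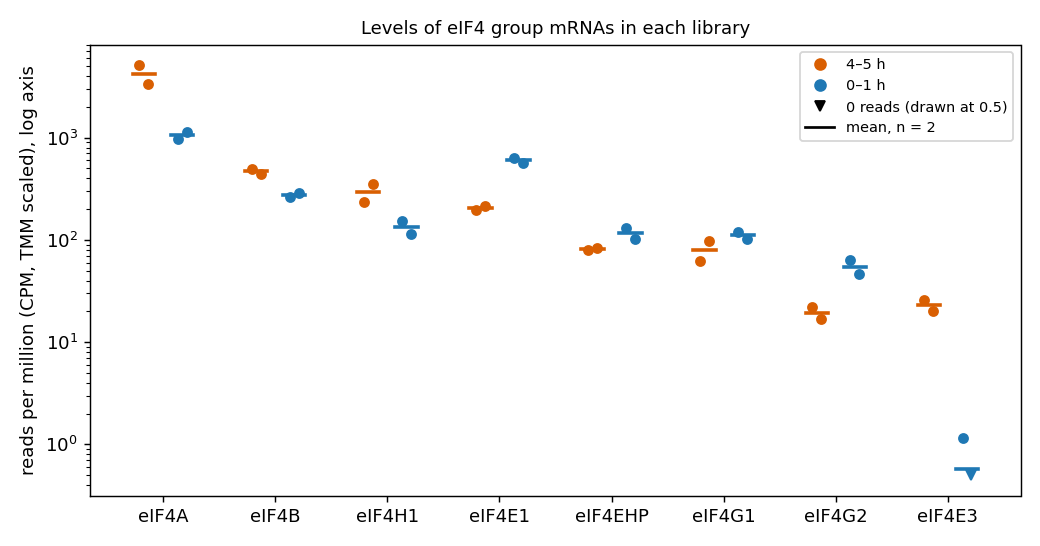
CPM on TMM-scaled library sizes (vertical log axis) of the 8 eIF4 genes with more than 3 reads in all, in the 2 libraries of 4–5 h (left of each pair) and of 0–1 h (right); lines are means, n = 2, and a triangle marks 0 reads. The eIF4A points at 4–5 h, 5118 and 3325, are above those at 0–1 h, 971 and 1138, while those of eIF4E1, 195 and 213, are below 639 and 567; eIF4B and eIF4H1 are negative instead with library size only and in TPM.

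The scaffold eIF4G joins the cap-binding protein to eIF3 and to the poly(A)-binding protein. Reads of eIF4G1, the general form, stood at 62.4 and 96.6 CPM at 4–5 h and at 118 and 102 CPM at 0–1 h, without passing the test (log2 change -0.53, SE 0.29, edgeR adjusted p = 0.113). It was called lower with library size only (-1.71, edgeR adjusted p = 1.1e-05), in log2(TPM + 1) (-2.15, limma adjusted p = 6.8e-05) and without 4–5 h replicate 2 (-0.82, edgeR adjusted p = 0.0259), and stood at -0.19 without 4–5 h replicate 1. The second gene, eIF4G2, which is known for its role in male meiosis, was called lower, with 22.0 and 16.7 CPM at 4–5 h, against 63.2 and 46.4 CPM at 0–1 h (log2 change -1.45, SE 0.41, edgeR adjusted p = 0.00166). This call rests on 12 and 5 reads at 4–5 h, against 55 and 38.4 at 0–1 h, and was lost in DESeq2, after thinning and without 0–1 h replicate 1. The annotation places 779 nt of eIF4G2 exons over CG33111 on the same strand, where reads could be assigned to either gene. The difference between the changes of eIF4G2 and eIF4G1 was -0.92 (SE 0.50, 95% interval -1.91 to 0.07), so a difference was not shown. Poly(A)-binding protein mRNA (pAbp), whose product meets eIF4G, had 15.1 and 11.2 reads per eIF4G1 read at 4–5 h and 5.13 and 6.66 at 0–1 h, without overlap.

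The fly has 7 eIF4E-class genes in the list, counting eIF4EHP, a cap-binding relative that does not bind eIF4G and in the fly embryo represses caudal and hunchback mRNA. It stood at 78.9 and 83.3 CPM at 4–5 h, against 131 and 102 CPM at 0–1 h. The 4–5 h values were lower in both libraries, yet the gene did not pass the test with TMM (log2 change -0.53, SE 0.28, edgeR adjusted p = 0.0985). With library size only it did (-1.73, adjusted p = 4.0e-06). Its change was 1.04 above that of eIF4E1 (SE 0.36, 95% interval 0.33 to 1.74), but the usage test given below did not pass for these genes (edgeR adjusted p = 0.305). Per eIF4E1 read there were 0.405 and 0.391 eIF4EHP reads at 4–5 h and 0.205 and 0.180 at 0–1 h. In TPM the ratio was 0.278 and 0.178 at 4–5 h and 0.158 and 0.156 at 0–1 h. Exons of eIF4EHP share 447 nt with Syx1A on the same strand.

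The remaining eIF4E genes were rare. Reads of eIF4E3, a form known for its role in spermatogenesis, numbered 14 and 6 at 4–5 h and 1 and 0 at 0–1 h. The ratio of summed reads was 40.0 per TMM-scaled library size, with a 95% counting interval of 6.40 to 1658, and 17.2 with library size only (2.76 to 714). These intervals cover counting error only, and the gene did not pass the filter on low counts. The testis markers other than bam had no read in any library. For eIF4E6 1 read was found in each of 3 libraries. No read of eIF4E4, eIF4E5 or eIF4E7 was seen, which at a limit of 3 reads allows up to 5.51 and 9.99 CPM in the 4–5 h libraries and 3.45 and 3.66 CPM in the 0–1 h libraries. The same holds for eIF4H2, eIF3d2 and eIF3g2, the second genes for eIF4H1, eIF3d1 and eIF3g1. For eIF3f2, the second gene for eIF3f1, 2 and 2 reads were found at 4–5 h and 0 and 0 at 0–1 h. In each of these pairs the first gene was read in all 4 libraries.

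Proteins that regulate eIF4E came from a list of 27 partner and regulator genes outside the group. Of the 27, all tested, 10 (37.0%) were called higher and 8 (29.6%) lower at 4–5 h with TMM (median log2 change 0.07). Of all tested genes 28.6% and 31.5% were, so the list did not differ much from all genes. With library size only 2 were called higher and 19 lower, against 10.9% and 63.3% of all tested genes. Thor, the 4E-BP that blocks the binding of eIF4E to eIF4G, had 294 and 149.9 CPM at 4–5 h, against 11.5 and 14.6 CPM at 0–1 h (log2 change 4.11, SE 0.34, edgeR adjusted p = 3.4e-17). Per eIF4E1 read there were 1.51 and 0.703 Thor reads at 4–5 h, against 0.0180 and 0.0258 at 0–1 h, and in TPM the ratio was 4.31 and 1.59 at 4–5 h, against 0.0468 and 0.0725 at 0–1 h. Both measures were higher in both 4–5 h libraries than in either 0–1 h library.

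Genes for the repression of oskar mRNA, and the eIF4E-binding protein mxt, were called lower. Reads of cup, the eIF4E-binding repressor of oskar mRNA, stood at 16.5 and 16.7 CPM at 4–5 h and at 175 and 122 CPM at 0–1 h (log2 change -3.15, SE 0.37). The mRNA of bru1, a repressor of oskar that works with Cup, stood at 11.0 and 13.3 CPM at 4–5 h, against 731 and 671 CPM at 0–1 h (log2 change -5.86, SE 0.32). For mxt, an eIF4E-binding protein that promotes translation, the values were 5.51 and 6.66 CPM at 4–5 h and 85.0 and 78.1 CPM at 0–1 h (log2 change -3.74, SE 0.50). Relative to eIF4E1, whose own reads were lower, cup had 0.0875 and 0.0780 reads per eIF4E1 read at 4–5 h and 0.273 and 0.214 at 0–1 h.

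Further partners reached the helicase, restart of initiation and the stress response. Pdcd4, an inhibitor that binds eIF4A, was called higher with 165 and 269.9 CPM at 4–5 h and 69.0 and 62.2 CPM at 0–1 h (log2 change 1.69, SE 0.27, -0.22 in log2(TPM + 1)). The transcription factor gene crc, the fly ATF4, which is translated more when eIF2 is phosphorylated, had 347 and 339.8 CPM at 4–5 h and 83.9 and 89.1 CPM at 0–1 h (log2 change 1.99, SE 0.25). This call was lost in log2(TPM + 1) (0.14, limma adjusted p = 0.627) and in log2(TPM + 5) (0.13, limma adjusted p = 0.602), with TPM of 45.8 and 50.8 at 4–5 h and 44.0 and 43.5 at 0–1 h. MCTS1, which works with DENR in restarting initiation, was called higher at 1.16 (SE 0.25), with -0.029 under library size only. The TORC1 subunit raptor was called lower at -1.71 (SE 0.57) on 9.18 and 9.99 CPM at 4–5 h and 17.2 and 46.4 CPM at 0–1 h, and this call was lost in DESeq2 and without 4–5 h replicate 1, 4–5 h replicate 2 or 0–1 h replicate 2. The eIF2 kinase genes PEK and Gcn2 stood at -0.99 (SE 0.43, edgeR adjusted p = 0.0397, called lower) and -0.82 (SE 0.55, not called). Their counts were low: PEK had 11 and 6 reads at 4–5 h and 35 and 33 at 0–1 h. Gcn2 had 6 and 3 at 4–5 h and 21 and 11 at 0–1 h. The eIF2alpha phosphatase subunit PPP1R15 was called higher at 0.64 (SE 0.28, edgeR adjusted p = 0.0429), with -0.55 under library size only.

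With TMM all 13 tested eIF3 genes were called higher at 4–5 h, against 28.6% of all tested genes. Their log2 changes lay between 0.59 and 2.01, with a median of 1.60. With library size only 6 were called higher and 1 lower (median 0.40), against 10.9% and 63.3% of all tested genes. In log2(TPM + 1) none was called higher and 2 lower (median -0.38), against 5.16% and 79.4% of all tested genes. Against the median of all genes the eIF3 median stood 1.70 higher with TMM, 1.69 with library size only, 1.41 in log2(TPM + 1) and 0.90 in log2(TPM + 5). The annotation lists 16 eIF3 genes, of which 14 had reads. The 13 changes had an SD of 0.40, against a median SE of 1 gene of 0.22. Leaving out eIF3j, the lowest, the other 12 ran between 1.19 and 2.01 with an SD of 0.27.

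The smallest adjusted p values were those of eIF3m, eIF3g1, eIF3k and eIF3c. The subunit eIF3m, part of the PCI-MPN core, had 849.9 and 779.6 CPM at 4–5 h and 183 and 224 CPM at 0–1 h (log2 change 2.00, SE 0.22, edgeR adjusted p = 3.3e-13). The RNA-binding subunit eIF3g1 had 1028 and 719.6 CPM at 4–5 h and 202 and 232 CPM at 0–1 h (2.01, SE 0.22, adjusted p = 4.0e-13). Reads of eIF3k, a small peripheral subunit, stood at 1131 and 1053 CPM at 4–5 h and at 303 and 262 CPM at 0–1 h (1.95, SE 0.22, adjusted p = 7.7e-13). All 3 had both 4–5 h libraries above both 0–1 h libraries in CPM, as did 37.7% of all tested genes. In TPM the stages overlapped for all 3.

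The core subunit eIF3c, at 765 and 883 CPM in the 4–5 h libraries and 234 and 198 CPM in the 0–1 h libraries, changed by 1.93 (SE 0.22, adjusted p = 1.3e-12, -0.023 in log2(TPM + 1)). Its large core partner eIF3a changed by 1.19 (SE 0.25), on 244 and 307 CPM at 4–5 h and 134 and 105 CPM at 0–1 h, and was 0.0063 with library size only. The loosely bound subunit eIF3j, which is found outside the stable complex and helps place eIF3 on the small subunit, had 339.6 and 223 CPM at 4–5 h and 199 and 181 CPM at 0–1 h. Its change was 0.59 (SE 0.24, adjusted p = 0.0274), -0.61 with library size only, and its call was lost in 7 other settings, among them DESeq2, thinning and the omission of 4–5 h replicate 1 or of either 0–1 h replicate. It was 1.43 below eIF3g1 (SE 0.32, 95% interval -2.06 to -0.79). These 2 had the lowest and highest changes of the 13, and the interval does not allow for that choice. Changes of the other 7 tested subunits, eIF3b, eIF3d1, eIF3e, eIF3f1, eIF3h, eIF3i and eIF3l, lay between 1.41 and 1.89.

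In TPM, which divide reads by length, the 13 subunit mRNAs had unequal values, although the complex holds its core subunits in equal numbers. In TPM eIF3k was the highest in all 4 libraries, with 424 and 435 at 4–5 h and 489.7 and 376 at 0–1 h. The lowest was eIF3a in all 4, with 15.2 and 21.0 at 4–5 h and 36.1 and 24.9 at 0–1 h. The ratio of highest to lowest was 28.0 and 20.7 at 4–5 h and 13.6 and 15.1 at 0–1 h. Spread among the 13, as the coefficient of variation of TPM, was 70.8% and 75.8% at 4–5 h and 59.8% and 59.2% at 0–1 h. The main transcripts measure 853 nt for eIF3k and 3892 nt for eIF3a, and the gap was smaller in undivided reads. There eIF3k had 616 and 316 reads at 4–5 h and 264 and 215 at 0–1 h. For eIF3a they numbered 133 and 92 at 4–5 h and 117 and 86 at 0–1 h. Which of these scales is nearer to the number of molecules, and the part of length in this spread, were not tested. The TPM values are therefore not read here as numbers of molecules.

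**Figure D3:**
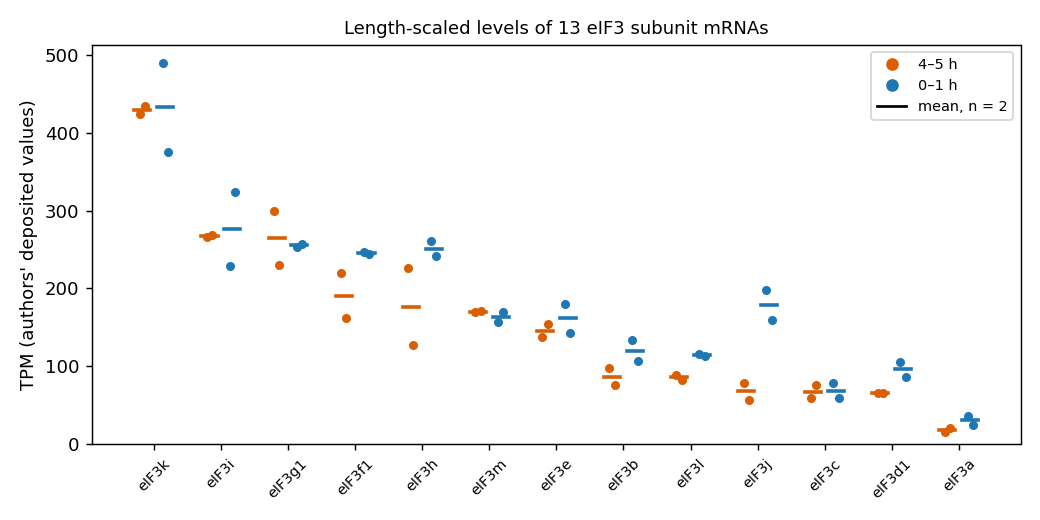
TPM as the authors deposited them (vertical axis) of the 13 tested eIF3 subunit genes in each library, 4–5 h left of 0–1 h, with lines at the means, n = 2, ordered by the 4–5 h mean. The order runs between eIF3k, at 424 and 435 in the 4–5 h libraries, and eIF3a, at 15.2 and 21.0; the gap between the stages is widest relative to the level for eIF3j, at 78.5 and 56.8 at 4–5 h and 198 and 159.5 at 0–1 h.

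Genes of the ternary complex, which delivers the initiator tRNA, had log2 changes between 0.38 and 0.75 with TMM, and 2 of the 3 were called higher. Reads of eIF2alpha, the subunit phosphorylated under stress, stood at 325 and 209.9 CPM at 4–5 h and at 128 and 198 CPM at 0–1 h (log2 change 0.74, SE 0.25, adjusted p = 0.00771). For eIF2beta they stood at 406 and 319.8 CPM at 4–5 h and at 207 and 228 CPM at 0–1 h (0.75, SE 0.23, adjusted p = 0.00331). The GTP-binding subunit eIF2gamma had 224 and 243 CPM at 4–5 h and 131 and 227 CPM at 0–1 h, did not pass (0.38, SE 0.25, adjusted p = 0.178) and shares 352 nt of exon with Su(var)3-9 on the same strand. Both calls were lost without 4–5 h replicate 1 or 0–1 h replicate 1, the call for eIF2alpha also in DESeq2, and all 3 genes were negative with library size only and in TPM.

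The 5 subunits of eIF2B, the exchange factor that recharges eIF2, were read at low levels and did not all move one way. The 1 called higher was eIF2Bbeta, with 121 and 90.0 CPM at 4–5 h and 57.5 and 53.7 CPM at 0–1 h (log2 change 0.95, SE 0.29, adjusted p = 0.00319, -0.25 with library size only). The 1 called lower was eIF2Bdelta, with 34.9 and 20.0 CPM at 4–5 h and 62.1 and 51.2 CPM at 0–1 h (-0.96, SE 0.38, adjusted p = 0.0249). The counts behind eIF2Bdelta were 19 and 6 reads at 4–5 h, against 54 and 42 at 0–1 h, and its call was lost in DESeq2, after thinning, and without 4–5 h replicate 2 or either 0–1 h replicate. The changes of these 2 subunits differed by -1.91 (SE 0.48, 95% interval -2.85 to -0.97). They were the lowest and highest of the 5, and the interval does not allow for that choice. In the usage test given below the eIF2B group did not pass. The call for eIF2Bbeta was lost in DESeq2 and without 4–5 h replicate 1 or 0–1 h replicate 2. Not called were eIF2Balpha at 0.55 (SE 0.35), eIF2Bgamma at 0.55 (SE 0.36) and the catalytic subunit eIF2Bepsilon at 0.79 (SE 0.41).

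Of the factors for scanning and start codon choice, eIF1 and eIF1A were called higher with TMM and eIF5 was not. The mRNA of eIF1, which keeps the scanning ribosome from stopping at wrong codons, had 624 and 529.7 CPM at 4–5 h and 306 and 342 CPM at 0–1 h (log2 change 0.84, SE 0.21, adjusted p = 4.5e-04, -0.35 with library size only). In TPM eIF1 stood at 327 and 306 at 4–5 h, against 690.3 and 685 at 0–1 h. It ranked 3rd of the members by TPM in both 4–5 h libraries and 1st in both 0–1 h libraries. That rank rests on its short transcript of 681 nt: at 0–1 h eIF1 had 266 and 280 reads, fewer than eIF4A with 845 and 933. For eIF1, a direction is thus given only relative to other genes. Its partner eIF1A had 736 and 713 CPM at 4–5 h and 313 and 328 CPM at 0–1 h (1.18, SE 0.21, adjusted p = 1.3e-06, -0.0064 with library size only). Not called was eIF5, the factor that triggers GTP hydrolysis by eIF2, at 242 and 179.9 CPM at 4–5 h and 180.4 and 151 CPM at 0–1 h (0.36, SE 0.24, adjusted p = 0.19), and 2588 nt of its exons overlap CG46312 on the same strand.

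At subunit joining, eIF5B, the GTPase that joins the ribosomal subunits, had 31.2 and 70.0 CPM at 4–5 h and 77.0 and 40.3 CPM at 0–1 h, which overlap, and its sign depended on which library was left out (-0.33, SE 0.37, adjusted p = 0.442). The large-subunit factor eIF6, which keeps free subunits apart, had 73.4 and 66.6 CPM at 4–5 h and 97.7 and 97.6 CPM at 0–1 h (-0.47, SE 0.29, adjusted p = 0.164, not called). Both were called lower with library size only (eIF5B at -1.52, edgeR adjusted p = 0.00448, and eIF6 at -1.66, edgeR adjusted p = 8.7e-06). In log2(TPM + 1) both were called lower too (eIF5B at -1.86, limma adjusted p = 0.00132, and eIF6 at -2.38, limma adjusted p = 1.0e-06). Both alternative tRNA carriers stood above 0 with TMM. Reads of eIF2A were at 556 and 319.8 CPM at 4–5 h and at 128 and 137 CPM at 0–1 h (1.75, SE 0.24, adjusted p = 2.3e-09, called, -0.28 in log2(TPM + 1)). Those of eIF2D were at 58.7 and 43.3 CPM at 4–5 h and at 36.8 and 26.8 CPM at 0–1 h (0.72, SE 0.37, adjusted p = 0.0835, not called).

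The make-up of all initiation factor reads within a library does not depend on scaling. Genes of eIF3 took 51.3% and 53.3% of these reads at 4–5 h and 41.4% and 40.7% at 0–1 h. The share of eIF4A was 25.5% and 20.6% at 4–5 h and 13.7% and 15.5% at 0–1 h. The eIF4E-class genes took 1.50% and 1.96% at 4–5 h, against 10.9% and 9.13% at 0–1 h, so they made up a smaller part of the initiation factor mRNA in both later libraries. Shares of the eIF2 genes were 4.75% and 4.79% at 4–5 h and 6.58% and 8.89% at 0–1 h, and those of the eIF2B genes 1.43% and 1.88% at 4–5 h and 2.92% and 3.04% at 0–1 h. In TPM, in which reads are divided by length, the share of eIF3 was 56.6% and 57.8% at 4–5 h and 43.7% and 43.1% at 0–1 h.

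**Figure D4:**
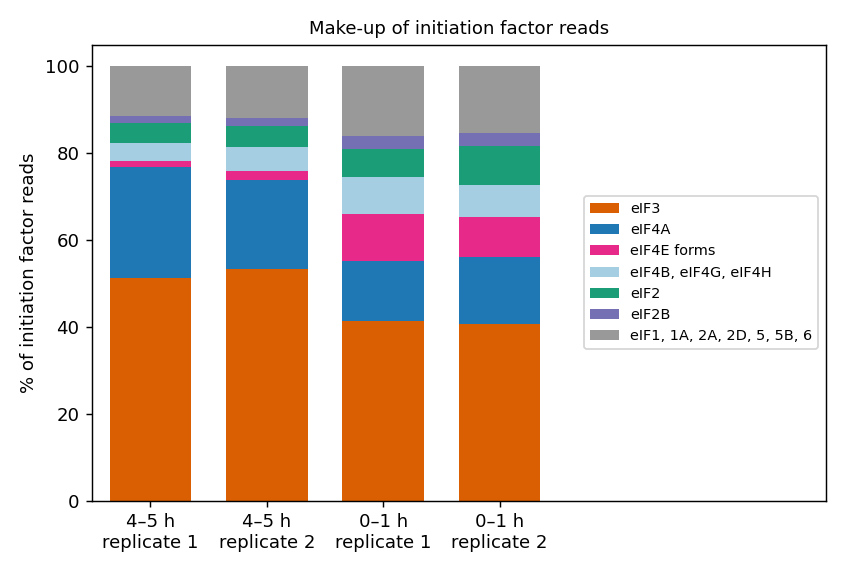
Share of all initiation factor reads (%, vertical axis) taken by each complex or factor in the 4 libraries, 4–5 h left of 0–1 h. The eIF3 and eIF4A blocks together fill more of the bars at 4–5 h, and the eIF4E block is 1.50% and 1.96% at 4–5 h against 10.9% and 9.13% at 0–1 h.

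Whether the genes of one complex kept their proportions was tested with the usage test of edgeR, which asks if members of a group change by unequal amounts. The eIF4 group passed (7 genes, adjusted p = 3.4e-04), while eIF3 (13 genes, adjusted p = 0.200, unadjusted p = 0.0488), eIF2B (5 genes, adjusted p = 0.218) and eIF2 (3 genes, adjusted p = 0.998) did not. For eIF3 the unadjusted p was 0.0241 with library size only (adjusted p = 0.118) and 0.637 without 0–1 h replicate 1, so equal change of its genes was not shown either. Of the 819 groups in that test, mostly genes with several transcripts, 13.6% passed. The eIF4 call was lost when any 1 library was left out, with adjusted p between 0.127 and 0.309 and unadjusted p between 1.3e-04 and 0.00131. With the replicate number as a block its adjusted p was 0.405. Tested singly against the rest of the eIF4 group, none of the 7 genes passed (edgeR, 0.278% of 1800 forms did), and 2 of them, eIF4E1 and eIF4G2, had an unadjusted p under 0.05. The values relative to the group were -2.76 for eIF4E1 (adjusted p = 0.0781) and -2.67 for eIF4G2 (adjusted p = 0.163).

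As families of related genes, the eIF4E forms (eIF4E1 and eIF4EHP, adjusted p = 0.305) and the eIF4G forms (adjusted p = 0.516) did not pass the usage test, and neither had an unadjusted p under 0.05. Of all groups in this test 13.5% passed.

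Alternative transcripts of 8 members could be tested, those with at least 2 annotated forms past the filter. None passed with annotated transcripts (edgeR usage test, 13.1% of 823 genes passed), and 2 of the 8, eIF4H1 and eIF5, had an unadjusted p under 0.05. When transcripts with 3′ ends within 50 nt of each other were summed, 1 of 6 testable members passed, eIF4H1 (adjusted p = 0.0287, 35.2% of 458 genes passed). That call was lost without any 1 of the libraries, with adjusted p between 0.0706 and 0.205, and with the replicate number as a block (edgeR adjusted p = 0.100).

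The eIF4H1 gene lies on chromosome X (16448665 to 16454972, plus strand, BDGP6.54). Its form RB ends at 16454972, measures 3895 nt and codes over 972 nt, and its form RC ends upstream at 16453615, measures 2640 nt and codes over 1074 nt. RB took 57.4% of eIF4H1 reads (95% exact binomial interval 48.4 to 66.0) and 84.0% (75.6 to 90.4) in the 4–5 h libraries, against 18.8% (12.5 to 26.5) and 31.2% (22.0 to 41.6) in the 0–1 h libraries. The downstream end was thus the more used one in both later libraries and the less used one in both earlier libraries. These intervals cover counting error only.

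A similar layout was seen for eIF1A on chromosome 3R, whose form RC ends at 18283005 and whose forms RA and RB end at 18282484, all coding over the same 444 nt. RC took 41.4% and 85.5% of eIF1A reads at 4–5 h and 26.8% and 14.9% at 0–1 h. Both 4–5 h shares lay above both 0–1 h shares, but the 4–5 h libraries differed widely, and the end-group test did not pass (adjusted p = 0.101, unadjusted p = 0.0436).

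For eIF4EHP too few reads passed the filter for a usage test over all 4 libraries. Its forms could be tested when 1 library was left out, and none of these 8 fits passed (4 with annotated transcripts and 4 with 3′ end groups, edgeR adjusted p between 0.0996 and 0.568). The shares are therefore given as a description. Form RA, which ends at 24063077 on the minus strand of chromosome 3R and codes over 669 nt, took 37.2% (95% exact binomial interval 23.0 to 53.3) and 48.0% (27.8 to 68.7) of the reads at 4–5 h, against 86.8% (79.2 to 92.4) and 92.9% (85.1 to 97.3) at 0–1 h. The rest fell on RB, which ends at 24067366 and codes over 744 nt, and RC, which ends at 24064477 and codes over 558 nt. RB had 18.4 and 2.26 reads at 4–5 h and 7.25 and 4.78 at 0–1 h, so the 4–5 h libraries differed in which form came beside RA.

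**Figure D5:**
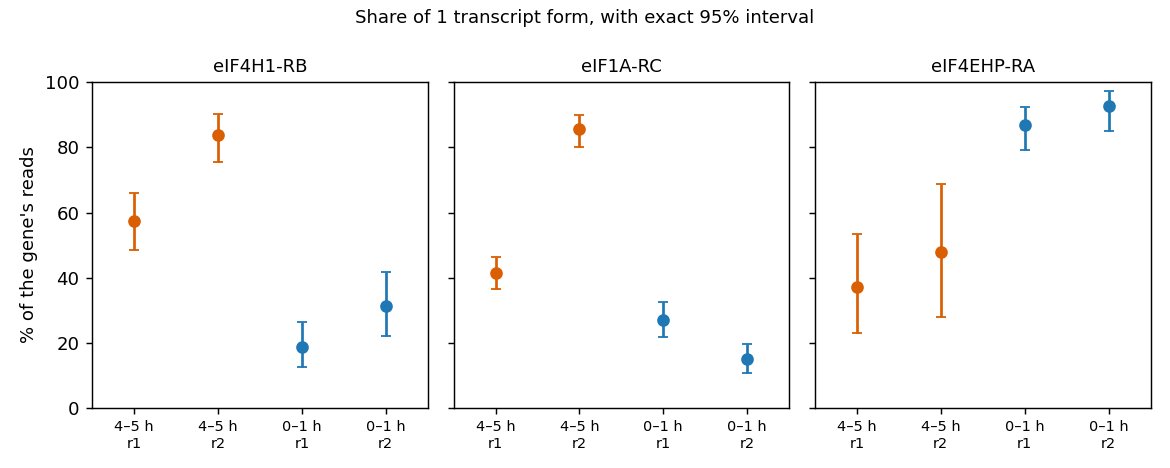
Share of a gene's reads (%, vertical axis) assigned to 1 transcript form in each library, 4–5 h left of 0–1 h, with exact 95% binomial intervals as bars, for eIF4H1-RB, eIF1A-RC and eIF4EHP-RA. The first form stands at 57.4% and 84.0% at 4–5 h against 18.8% and 31.2% at 0–1 h, and eIF4EHP-RA at 37.2% and 48.0% against 86.8% and 92.9%.

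The other 6 members with forms to test did not pass. In eIF4A, form RE held 90.9% and 96.9% of its reads at 4–5 h, against 96.0% and 88.9% at 0–1 h, and all its annotated forms code over the same 1209 nt. For eIF4B the form RA held 87.7% and 81.7% at 4–5 h and 82.7% and 90.1% at 0–1 h. The form RA of eIF3c held 81.8% and 80.2% at 4–5 h and 82.8% and 100% at 0–1 h. In eIF4E1, eIF2A and eIF5 the assignment swung between replicates of a stage: eIF4E1-RB took 0% and 46.8% at 4–5 h and 46.8% and 0% at 0–1 h. The forms of eIF4E1 share 1 annotated 3′ end, at 9399618, and 8 of its 9 annotated forms code over the same 777 nt. Form-level values of these 3 genes, and the TPM that use their lengths, therefore carry more error than their gene sums.

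Length moved with the changes over all genes. Among tested genes with main transcripts under 1000 nt the median log2 change was 0.83, and for those of 1000–2000, 2000–3000, 3000–4000 and over 4000 nt it was -0.11, -0.43, -0.58 and -0.32. In the same order, the tested initiation factor genes had medians of 1.39 (2 genes), 0.78 (19), 1.13 (9), 1.56 (2) and -0.53 (3). The 3 longest were eIF4G1, eIF4G2 and eIF5B. The 2 members of 3000–4000 nt, eIF3c (3143 nt) and eIF3a (3892 nt), were called higher, as were 18.5% of all tested genes of that length. The part of transcript length in the results was not tested.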

How the data were processed

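RNA of 4 libraries was read as native molecules, per the labels' protocols. The submitters' processing notes name minimap2, Salmon and the build BDGP6. Their versions, like the settings used, were not given in the sources used here. Read numbers as deposited are expected counts estimated by the authors per transcript and not normalised. The TPM values were also made by the authors, per the file headers. Of 30652 listed transcripts 30280 were matched by identifier to the Ensembl 115 annotation of BDGP6.54 (14001 genes), and 99.4% of these had the same length there. The other 372 were kept under their own names.

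Counts were summed per gene, rounded and tested with edgeR 4.0.16 in R 4.3.3 (minimum count 10, TMM, robust quasi-likelihood F test with no term beside stage, adjusted by Benjamini-Hochberg over all tested genes, threshold 0.05). SE is that of the fitted log2 change. Usage of forms was tested with edgeR's diffSpliceDGE, with complexes or families as groups of gene sums. Alternatives used DESeq2 1.42.0 and limma 3.58.1, other scalings and filters, thinning, a replicate block and the omission of each library. The edgeR gene test and the usage test were tried on simulated data at their main settings, and the alternatives were not. Settings with 1 library in a stage assume that it varies like the others.

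The members and gene lists were chosen with earlier results of these data known. Full values are given for the 5 members with the smallest adjusted p in each direction, the eIF4E-class genes, paralogue pairs with reads and up to 8 members by isoform usage, and the 4 called partners with the smallest p in each direction are named. The partners PEK, Gcn2, PPP1R15 and pAbp were named after their values were seen. A partner gene and a maternal marker of the planned lists, and promoter motifs were not analysed here. Whether counting used strand is not given in the sources used here, and exons of 14 members overlap genes on the opposite strand, whose reads could not then be told apart.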

Additional observations from a re-analysis of the deposited data

How the results depend on the processing

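Most calls of direction rest on the scaling. With library size only, 8 members were called higher and 11 lower, against 10.9% and 63.3% of all genes, and their median log2 change was -0.35. With limma on log2(TPM + 1) and on log2(TPM + 5), 0 were called higher (0 also at an unadjusted p under 0.05 in both), 22 and 23 were called lower, and the medians were -1.06 and -0.94. Of all tested genes 5.16% and 5.20% were called higher and 79.4% and 80.1% lower in these fits, with medians of -1.80 and -1.27. Over a minimum count of 30 the median was 1.17, taken over 31 members. That filter dropped eIF2Balpha, eIF2Bgamma, eIF2Bepsilon and eIF2D, so this median and that of the main fit cover unlike sets of genes. DESeq2 called 1 member lower and 9 of the 27 partners changed, and 1 member was lower after thinning to the smallest library. Of all genes DESeq2 called 17.7% higher and 13.6% lower, and 28.8% were lower after thinning. Leaving out 1 library at a time gave 18 to 23 members higher, 1 to 3 lower, 10 to 13 changed partners and 0 complexes with changed proportions, where eIF4 had an unadjusted p between 1.3e-04 and 0.00131. Members' isoform usage gave 1 call with 3′ end groups. The cause of these differences was not tested.

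The log2 changes that turned sign were, with library size only, eIF1 -0.35, eIF1A -0.0064, eIF2alpha -0.46, eIF2Balpha -0.64, eIF2Bbeta -0.25, eIF2Bepsilon -0.40, eIF2beta -0.45, eIF2Bgamma -0.63, eIF2D -0.49, eIF2gamma -0.80, eIF3j -0.61, eIF4B -0.41, eIF4H1 -0.050, eIF5 -0.83, MCTS1 -0.029. With limma on log2(TPM + 1) and log2(TPM + 5) they were eIF1 -1.12 and -1.11, eIF1A -1.03 and -1.01, eIF2A -0.28 and -0.26, eIF2alpha -1.22 and -1.15, eIF2Balpha -1.31 and -1.16, eIF2Bbeta -1.01 and -0.90, eIF2Bepsilon -0.97 and -0.63, eIF2beta -1.21 and -1.18, eIF2Bgamma -1.26 and -1.01, eIF2D -1.17 and -0.89, eIF2gamma -1.48 and -1.38, eIF3a -0.72 and -0.62, eIF3b -0.47 and -0.45, eIF3c -0.023 and -0.022, eIF3d1 -0.54 and -0.51, eIF3e -0.14 and -0.14, eIF3f1 -0.38 and -0.37, eIF3h -0.56 and -0.55, eIF3i -0.028 and -0.028, eIF3j -1.40 and -1.35, eIF3l -0.41 and -0.40, eIF4B -1.16 and -1.12, eIF4H1 -1.06 and -0.94, eIF5 -1.58 and -1.42, MCTS1 -1.11 and -1.07, Pdcd4 -0.22 and -0.17. For eIF5B the values ran between -0.91 and 0.25 over the 4 fits that each left out 1 library, and were 0.25 without 4–5 h replicate 1 and 0.22 without 0–1 h replicate 1.

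Calls of RLE scaling did not differ from those of TMM for any of the 35 members. Same-numbered libraries shared only a number: their deviations from the stage means correlated at -0.15 over 6042 genes with 2 pairs. With a replicate block 21 members were called higher and 3 lower, against 26.0% and 28.0% of all tested genes. In that setting 0 complexes passed (edgeR usage test, eIF4 unadjusted p = 0.00196). The crossed pairing, chosen after seeing the data, gave 22 higher and 3 lower, against 30.4% and 32.3% of all tested genes. The smallest 4–5 h library, of 429534 reads, limits what can be said of genes with under 20 reads, such as eIF2Bepsilon and eIF4G2.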
